A study of Mus musculus with 4 samples.

Results

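The 10 genes described here are widely used markers of intestinal stem cells: Lgr5, Smoc2, Ascl2, Sox9, Ephb2, Ephb3, Cd44, Prom1, Msi1 and Lrig1. They were taken by symbol from a table of 14979 genes, and all 10 were present and had enough tags to be tested. The table comes from cap analysis of gene expression (CAGE). The method sequences the first bases of capped RNA, so that each short read (tag) marks the start of a transcript and its number does not grow with gene length. The RNA came from colon tumours of mice given azoxymethane, a carcinogen, and dextran sulfate sodium, which inflames the colon (AOM/DSS). The MAdCAM1 group (2 mice) was treated with an anti-MAdCAM-1 antibody and the IgG group (2 mice) with a control IgG antibody. MAdCAM-1 sits on venules of the gut and is bound by α4β7 integrin on lymphocytes. The labels give the tissue as colon and state neither strain, genotype, age, dose nor time for either group. Each mouse gave 1 library, named here MAdCAM1 1, MAdCAM1 2, IgG 1 and IgG 2.

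Stem cells at the base of the colonic crypt divide to renew the epithelium, and Wnt signals from the surrounding stroma keep them in that state. LGR5 is a receptor for R-spondins, which strengthen Wnt signalling by removing the ubiquitin ligases RNF43 and ZNRF3 from around the Wnt receptors. Most colon tumours carry active Wnt signalling and express crypt-base genes. In AOM/DSS tumours β-catenin is often stabilised by mutation.

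No stem cell marker passed the test between the antibody groups, and the markers did not move as a block. Msi1 had a fold of 0.498 and Lrig1 of 2.02 over the IgG group, neither called, while Smoc2 was nearly equal in all 4 tumours. In CPM, all 10 markers shared a difference within the MAdCAM1 group. Each was higher in MAdCAM1 1 than in MAdCAM1 2, but for Smoc2 this was within counting error and turned when set against Epcam. The ratio of Lgr5 to Ephb2 varied least across the 4 tumours, and the ratio of Lgr5 to Ascl2 was higher in both MAdCAM1 tumours, as a description with no test. Ratios without overlap between the groups were common, in 28 of the 45 marker pairs and in 37.5% of all gene pairs.

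The libraries held 14850923 and 15895228 tags in the MAdCAM1 group and 16891234 and 15727936 tags in the IgG group. Levels are CPM, tag counts relative to library size and scaled with TMM factors, so that 1 tag was worth between 0.0569 and 0.0700 CPM. Colon epithelium was present in every tumour, with Epcam at 3185 and 2811 CPM in the MAdCAM1 libraries and at 1945 and 2049 CPM in the IgG libraries. The 12 smooth muscle and fibroblast genes found in the table, of 13 listed, summed to 674 and 3552 CPM in the MAdCAM1 libraries and to 2267 and 1537 CPM in the IgG libraries. The 12 leukocyte genes summed to 387 and 1822 CPM in the MAdCAM1 libraries and to 477 and 1067 CPM in the IgG libraries, and no gene of either list that was found was at 0. These are bulk tumours, so fewer cells of a type and less RNA per cell cannot be told apart.

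CAGE tags start at promoters, and the promoter windows of 4 markers are shown beside the values described for them. Ascl2 was lower and Lrig1 higher in both MAdCAM1 libraries, neither called by any test, where 18.7% and 19.7% of all genes tested were lower or higher without overlap. The ratio of the paralogues Ephb2 and Ephb3 did not overlap between the groups either, as was the case for 37.5% of all gene pairs. Each line gives the 250 bases before the gene's RefSeq start, from a table of build GRCm38.p6, read 5′ to 3′ on the gene's strand. The nearest transcript start of the GENCODE annotation lay at −5, −28, −35 and −13 bases from it for Ascl2, Ephb2, Ephb3 and Lrig1 (negative is upstream). Part of each window therefore lies inside the GENCODE span of its gene. Each window was found once, letter for letter, on its chromosome of GRCm39, and the coordinates are of that build. Capitals mark GC boxes (GGGCGG) and CCAAT boxes (CCAAT), general promoter elements, on either strand.
Ascl2, chr7:142523002-142523251, minus strand: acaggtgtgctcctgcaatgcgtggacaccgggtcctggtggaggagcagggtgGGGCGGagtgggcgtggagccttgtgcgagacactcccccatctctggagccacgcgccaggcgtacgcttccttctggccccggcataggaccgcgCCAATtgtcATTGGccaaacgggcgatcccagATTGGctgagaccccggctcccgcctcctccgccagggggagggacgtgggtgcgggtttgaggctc
Ephb2, chr4:136563324-136563573, minus strand: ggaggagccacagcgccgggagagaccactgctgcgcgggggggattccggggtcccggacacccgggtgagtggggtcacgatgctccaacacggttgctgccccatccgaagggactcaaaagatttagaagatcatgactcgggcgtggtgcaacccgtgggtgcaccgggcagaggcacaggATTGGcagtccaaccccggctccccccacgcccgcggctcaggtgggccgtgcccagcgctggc
Ephb3, chr16:21023295-21023544, plus strand: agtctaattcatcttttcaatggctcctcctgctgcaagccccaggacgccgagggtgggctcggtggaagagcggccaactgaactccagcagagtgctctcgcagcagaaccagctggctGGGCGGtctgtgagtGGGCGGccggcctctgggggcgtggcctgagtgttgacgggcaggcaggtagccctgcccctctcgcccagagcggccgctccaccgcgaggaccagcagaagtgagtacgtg
Lrig1, chr6:94677127-94677376, minus strand: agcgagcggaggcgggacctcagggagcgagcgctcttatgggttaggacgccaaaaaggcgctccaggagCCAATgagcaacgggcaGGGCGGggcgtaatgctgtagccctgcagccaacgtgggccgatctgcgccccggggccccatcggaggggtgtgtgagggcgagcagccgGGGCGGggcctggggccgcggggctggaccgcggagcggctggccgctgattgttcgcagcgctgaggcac

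The table held windows for 6 of the 10 markers, 7 windows in all because Prom1 has 2. Cd44 and Prom1 are the others with an entry, and Lgr5, Smoc2, Sox9 and Msi1 have none. The Ascl2 window held 3 CCAAT boxes and 1 GC box, that of Ephb2 1 CCAAT box, that of Ephb3 2 GC boxes and that of Lrig1 2 GC boxes and 1 CCAAT box. GC boxes occurred in 32.7% and CCAAT boxes in 33.8% of all 32851 windows of the same length. The binding letters of TCF/LEF factors, through which β-catenin acts, were searched as CTTTGAA and CTTTGAT on both strands. They were in 0 of the 7 windows, and 7.48% of all windows held either of them. E-boxes (CANNTG), the letters bound by basic helix-loop-helix factors such as ASCL2, were counted in the same windows. There were 2 in the Ascl2 window, 1 in that of Ephb2, 2 in that of Ephb3 and 0 in that of Lrig1, and 66.2% of all windows held at least 1. The GC content of the 4 windows shown was 67.6%, 68.4%, 65.6% and 71.6% in the order printed, against a median of 52.4% over all windows. The windows not shown were nearer to that median, at 56.4% for Cd44 and at 59.2% and 50.8% for windows 1 and 2 of Prom1. Cd44 and Prom1 window 2 held no GC box, CCAAT box or E-box, and Prom1 window 1 held 1 of each. The deposited table sums tags per gene, so the start sites used in these tumours were not analysed here.

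The comparison of the antibody groups asked which genes differ in level between tumours of mice with and without MAdCAM-1 blockade. edgeR's quasi-likelihood test called 0 of the 10 markers after Benjamini-Hochberg adjustment over 14331 genes, against a background of 0% of all genes tested. At an unadjusted p under 0.05 it had 0 markers, against 5.09% of genes higher and 1.82% lower. edgeR's exact test, DESeq2 and limma-voom also called 0 markers, with 1.12%, 1.67% and 0% of all genes called. Without overlap between the groups, 1 marker lay higher in the MAdCAM1 group and 2 lay lower, against 19.7% and 18.7% of all genes tested. A negative log2 fold change was found for 6 of the 10 markers and for 50.2% of all genes. These shares of the markers are near the background. The median log2 fold change of the markers, MAdCAM1 over IgG, was −0.076, and that of all genes tested was −0.0012.

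**Figure D1:**
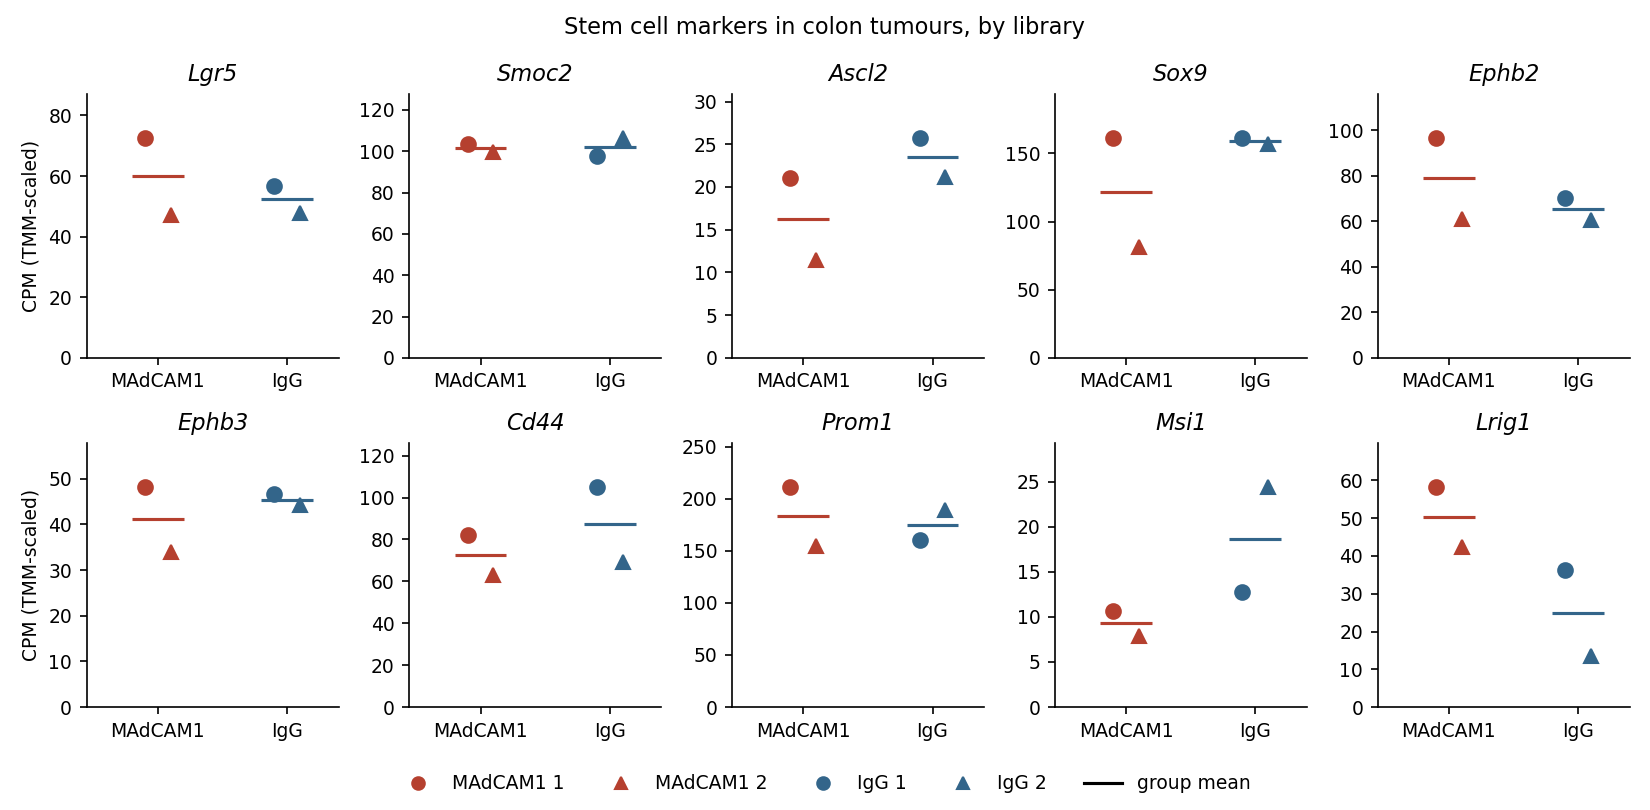
Level of each marker in CPM (y axis, from 0) in the MAdCAM1 and IgG libraries; circles are mouse 1 and triangles mouse 2 of each group, and lines are group means. Lrig1 is higher in both MAdCAM1 libraries, Ascl2 and Msi1 are lower in both, and the other 7 markers overlap between the groups.

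Lgr5 and Smoc2 mark the cycling stem cells at the crypt base. On GRCm39, the build of all coordinates here, Lgr5 (ENSMUSG00000020140.16) spans chromosome 10, 115286216 to 115423685. It had 72.7 and 47.1 CPM in the MAdCAM1 libraries, against 56.7 and 47.9 CPM in the IgG libraries. The highest and the lowest value were both in the MAdCAM1 group, so the groups overlapped. The log2 fold change was 0.19 (SE 0.26), with a 95% interval of the fold from 0.698 to 1.88 (edgeR adjusted p = 0.915). Without MAdCAM1 1 the log2 fold change of Lgr5 was −0.15. Smoc2 (ENSMUSG00000023886.11, chromosome 17, 14499735 to 14625074), which encodes a secreted matricellular calcium-binding protein, was the steadiest marker. It stood at 103 and 99.6 CPM in the MAdCAM1 libraries, against 97.9 and 107 CPM in the IgG libraries. All 4 values lay within a ratio of 1.09 from highest to lowest. The median was 1.48 over all genes tested and 1.38 over the 8350 genes within the markers' range of mean CPM. The fold was 0.993 with a 95% interval from 0.773 to 1.28 (edgeR adjusted p = 0.994), and the sign of so small a difference turned without IgG 2 (log2 fold change 0.047) and without MAdCAM1 2 (0.017).

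Ascl2 and Sox9 encode transcription factors of the crypt base. Ascl2 (ENSMUSG00000009248.7, chromosome 7, 142520564 to 142523006), a helix-loop-helix factor and Wnt target that controls the stem cell state, had 301 and 176 tags in the MAdCAM1 libraries, against 453 and 343 tags in the IgG libraries. In CPM these were 21.1 and 11.4 in MAdCAM1 and 25.8 and 21.2 in IgG. The groups did not overlap, but MAdCAM1 1 and IgG 2 differed by less than 1 CPM, and only MAdCAM1 2 stood well below the rest. edgeR gave a log2 fold change of −0.53 (SE 0.36), with a 95% interval of the fold from 0.353 to 1.35 (edgeR adjusted p = 0.826). Without MAdCAM1 2 the log2 fold change of Ascl2 was −0.16. Sox9 (ENSMUSG00000000567.6, chromosome 11, 112673009 to 112678586), a factor of crypt progenitors and of other crypt cells, stood at 162 and 81.3 CPM in the MAdCAM1 libraries, against 162 and 157 CPM in the IgG libraries. Here 3 tumours were alike and MAdCAM1 2 was lower, with a ratio of 1.99 within the MAdCAM1 group against 1.03 within the IgG group. The log2 fold change of −0.39 (SE 0.36; edgeR adjusted p = 0.874) rested on that library, and without MAdCAM1 2 it was 0.023.

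Ephb2 and Ephb3 encode receptor tyrosine kinases that are Wnt targets and position cells along the crypt through repulsion by B-type ephrins. Ephb2 (ENSMUSG00000028664.15, chromosome 4, 136374850 to 136563351) stood at 96.7 and 60.9 CPM in the MAdCAM1 libraries, against 70.2 and 60.6 CPM in the IgG libraries. Only MAdCAM1 1 stood above the other libraries, and the groups overlapped. On the log2 scale the change was 0.27 (SE 0.27), with a 95% interval of the fold from 0.725 to 2.001 (edgeR adjusted p = 0.878), and without MAdCAM1 1 it was −0.10. Ephb3 (ENSMUSG00000005958.16, chromosome 16, 21023495 to 21042057) stood at 48.2 and 34.1 CPM in the MAdCAM1 libraries, against 46.6 and 44.2 CPM in the IgG libraries. MAdCAM1 2 was the low value and the groups overlapped. Its log2 fold change was −0.14 (SE 0.22; edgeR adjusted p = 0.931), and without MAdCAM1 2 it was 0.088.

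Cd44 and Prom1 encode surface proteins used to sort tumour-initiating cells. Cd44 (ENSMUSG00000005087.18, chromosome 2, 102641486 to 102732010), the hyaluronan receptor and a Wnt target that leukocytes and stroma also express, stood at 81.9 and 63.1 CPM in the MAdCAM1 libraries, against 105 and 69.3 CPM in the IgG libraries. IgG 1 was highest, and the groups overlapped. Its lowest level was in MAdCAM1 2, the library with the highest leukocyte sum, and the part of leukocytes in the result was not tested. The log2 fold change was −0.27 (SE 0.27; edgeR adjusted p = 0.879), and without IgG 1 it was 0.049. Prom1 (ENSMUSG00000029086.16, chromosome 5, 44150962 to 44259395), the pentaspan membrane protein CD133, had the highest group means of the 10 markers in CPM. It stood at 212 and 155 CPM in the MAdCAM1 libraries, against 161 and 189 CPM in the IgG libraries, so the MAdCAM1 values lay outside the IgG values on both sides. edgeR gave a log2 fold change of 0.067 (SE 0.22), with a 95% interval of the fold from 0.698 to 1.57 (edgeR adjusted p = 0.968). Its sign turned without MAdCAM1 1 (−0.18), without IgG 1 (−0.063) and with library sizes in place of TMM factors (−0.031), a scaling that moved the all-gene median to −0.099.

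Msi1 (ENSMUSG00000054256.12, chromosome 5, 115567419 to 115593757) encodes Musashi-1, an RNA-binding protein of neural and intestinal progenitors that represses translation of the Notch inhibitor Numb. It had 152 and 122 tags in the MAdCAM1 libraries, against 225 and 395 tags in the IgG libraries, the lowest numbers of the 10 markers in every library but IgG 2. In CPM these were 10.6 and 7.90 in MAdCAM1 and 12.8 and 24.4 in IgG, so both MAdCAM1 values were lower and IgG 2 stood above the other libraries. Exact Poisson 95% intervals, which cover counting error only, ran from 129 to 178 tags in MAdCAM1 1 and from 197 to 256 tags in IgG 1. Msi1 averaged 9.27 ± 1.94 CPM in MAdCAM1 and 18.6 ± 8.22 CPM in IgG (SD, n = 2 each). With a log2 fold change of −1.01 (SE 0.40), its unadjusted p of 0.0628 in edgeR's quasi-likelihood test across all genes was the smallest among the markers, and the adjusted p was 0.731. The 95% interval of the fold ran from 0.234 to 1.06. Without IgG 2 the log2 fold change of Msi1 was −0.47. The paralogue Msi2 was nearly equal at 86.5 and 75.0 CPM in MAdCAM1 and 82.9 and 79.8 CPM in IgG; it was chosen for mention after its values were seen.

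Lrig1 (ENSMUSG00000030029.15, chromosome 6, 94581510 to 94677242) encodes a leucine-rich repeat protein that restrains ErbB receptors and marks stem and progenitor cells, including more quiescent ones. It had 833 and 656 tags in the MAdCAM1 libraries, against 638 and 218 tags in the IgG libraries. In CPM these were 58.3 and 42.5 in MAdCAM1 and 36.3 and 13.5 in IgG. Both MAdCAM1 values were higher, yet the widest gap was within the IgG group, where IgG 1 was 2.69 times IgG 2. On the log2 scale the change was 1.02 (SE 0.53), with a 95% interval of the fold from 0.740 to 5.53 (edgeR adjusted p = 0.763). Without IgG 2 the log2 fold change of Lrig1 was 0.46, and without IgG 1 it was 1.88. Lrig1 overlaps the end of Slc25a26 on the opposite strand, a gene with 71 and 76 tags in the MAdCAM1 libraries and 81 and 62 tags in the IgG libraries.

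**Figure D2:**
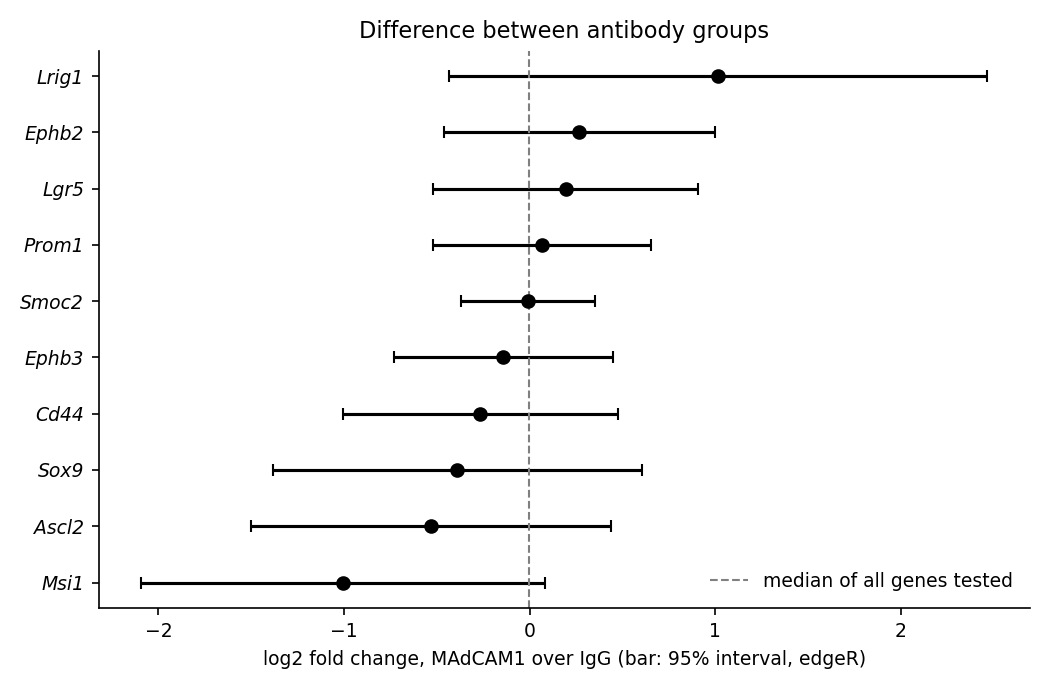
Log2 fold change of each marker, MAdCAM1 over IgG (x axis), with 95% intervals from edgeR's fit to 2 libraries per group; the dashed line is the median of all genes tested. Every interval includes 0; the estimates run from −1.01 for Msi1 to 1.02 for Lrig1, and the interval of Smoc2 is the narrowest.

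In CPM, the 2 tumours of the MAdCAM1 group differed from each other in the same direction for every marker. All 10 were higher in MAdCAM1 1 than in MAdCAM1 2, where 53.6% of all genes tested were, and the median log2 difference was 0.48 for the markers and 0.029 for all genes. This count was made after the values were seen and carries no test. The ratio of MAdCAM1 1 to MAdCAM1 2 was 1.99 for Sox9, 1.85 for Ascl2, 1.59 for Ephb2, 1.54 for Lgr5 and 1.04 for Smoc2. In the IgG group 7 of the 10 markers were higher in IgG 1 than in IgG 2, against 50.1% of all genes tested, with a median log2 difference of 0.15. MAdCAM1 2 was the lowest of the 4 libraries for 7 markers and the highest for 0, and MAdCAM1 1 was the highest for 5. MAdCAM1 2 also had the larger smooth muscle and fibroblast sum (3552 CPM, against 674 CPM in MAdCAM1 1) and leukocyte sum (1822 CPM, against 387 CPM in MAdCAM1 1), and their part in the difference was not tested.

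**Figure D3:**
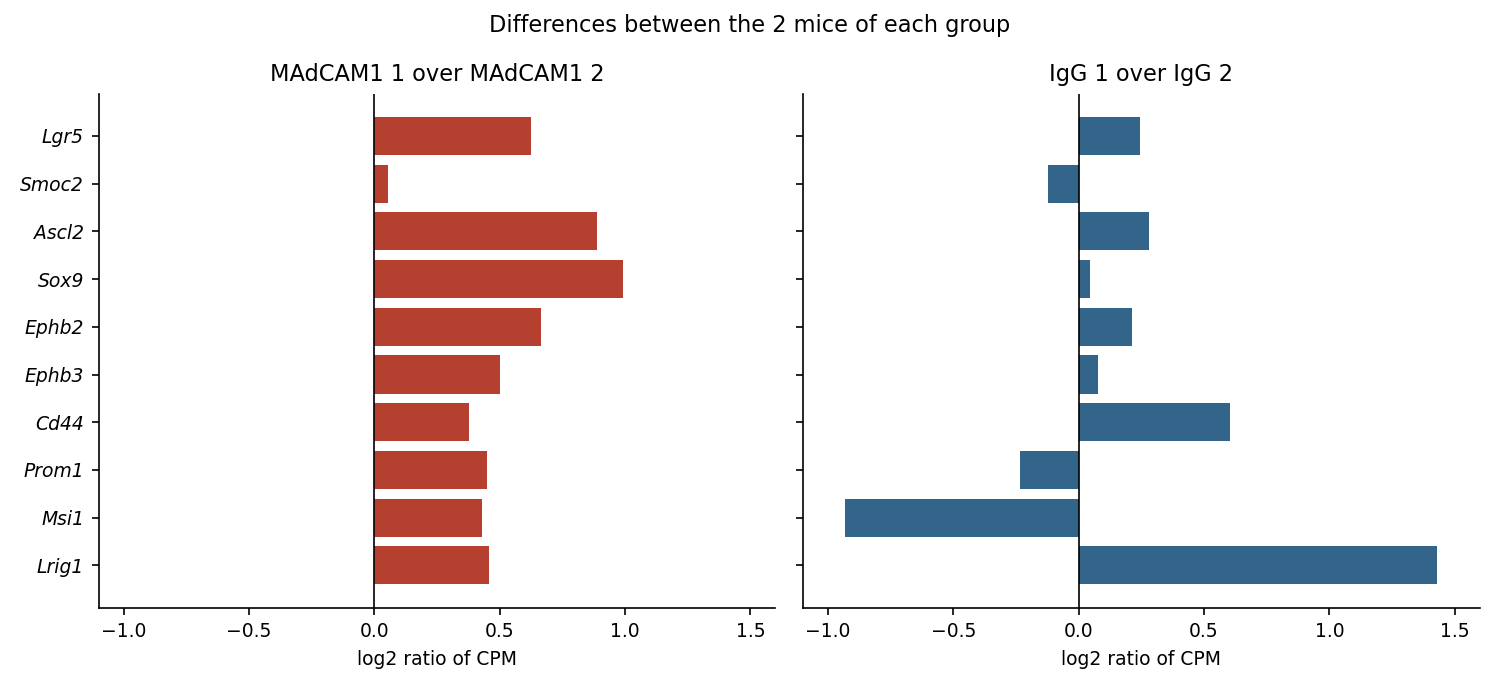
Log2 ratio of CPM between the 2 mice of each group for the 10 markers (x axis), MAdCAM1 1 over MAdCAM1 2 on the left and IgG 1 over IgG 2 on the right. All 10 bars on the left point to MAdCAM1 1; on the right Smoc2, Prom1 and Msi1 point to IgG 2 and the other 7 to IgG 1.

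Levels were also set against epithelial RNA, since the markers are used for epithelial stem cells and Epcam itself was higher in both MAdCAM1 libraries. This scaling was added after the data were seen. Leukocytes and stroma also express Cd44, and the part of cells other than epithelium in these ratios was not tested for any marker. Lgr5 tags numbered 2.28% and 1.67% of Epcam tags in the MAdCAM1 libraries, against 2.92% and 2.34% in the IgG libraries. Smoc2 tags numbered 3.25% and 3.54% of Epcam tags in MAdCAM1 and 5.03% and 5.20% in IgG. Measured so, 8 of 10 markers were lower in both MAdCAM1 libraries, all but Ephb2 and Lrig1, which overlapped. Of all genes tested 69% were lower by that measure, so the markers' share is near the background. Against the summed tags of 8 epithelial genes, 9 of 10 markers were lower in both, all but Lrig1, and 70.4% of all genes were. A quasi-likelihood fit scaled to that sum called 0 markers, with a median log2 fold change of −0.70 for the markers and −0.61 for all genes.

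Ratios between markers within a library need no scaling factor. Lgr5 and Ephb2, both Wnt-dependent crypt genes, kept the most even ratio: Lgr5 had 0.752 and 0.773 tags per Ephb2 tag in the MAdCAM1 libraries and 0.808 and 0.790 in the IgG libraries. These values did not overlap either and were lower in MAdCAM1, with group means of the log2 ratio −0.068 apart and a pooled SD within groups of 0.026 (n = 2 each). Lgr5 and Ascl2 differed more. There were 3.45 and 4.13 Lgr5 tags per Ascl2 tag in the MAdCAM1 libraries, against 2.20 and 2.26 in the IgG libraries. The group means of that log2 ratio lay 0.76 apart, with a pooled SD within groups of 0.13 (n = 2 each). Ephb2 per paralogue tag was higher in both MAdCAM1 libraries, at 2.004 and 1.79 Ephb2 tags per Ephb3 tag in MAdCAM1 and 1.51 and 1.37 in IgG. Lgr5 per Smoc2 tag overlapped, at 0.702 and 0.473 in MAdCAM1 and 0.580 and 0.449 in IgG. Of the 45 marker pairs, 28 had ratios that did not overlap between the groups, where 37.5% of all pairs of 14293 genes did. Lrig1 took part in 9 of those without overlap, and among the 28 pairs that hold neither Lrig1 nor Msi1, 14 did not overlap. The pairs share genes and are not independent, and these ratios were chosen after their values were seen and carry no test.

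**Figure D4:**
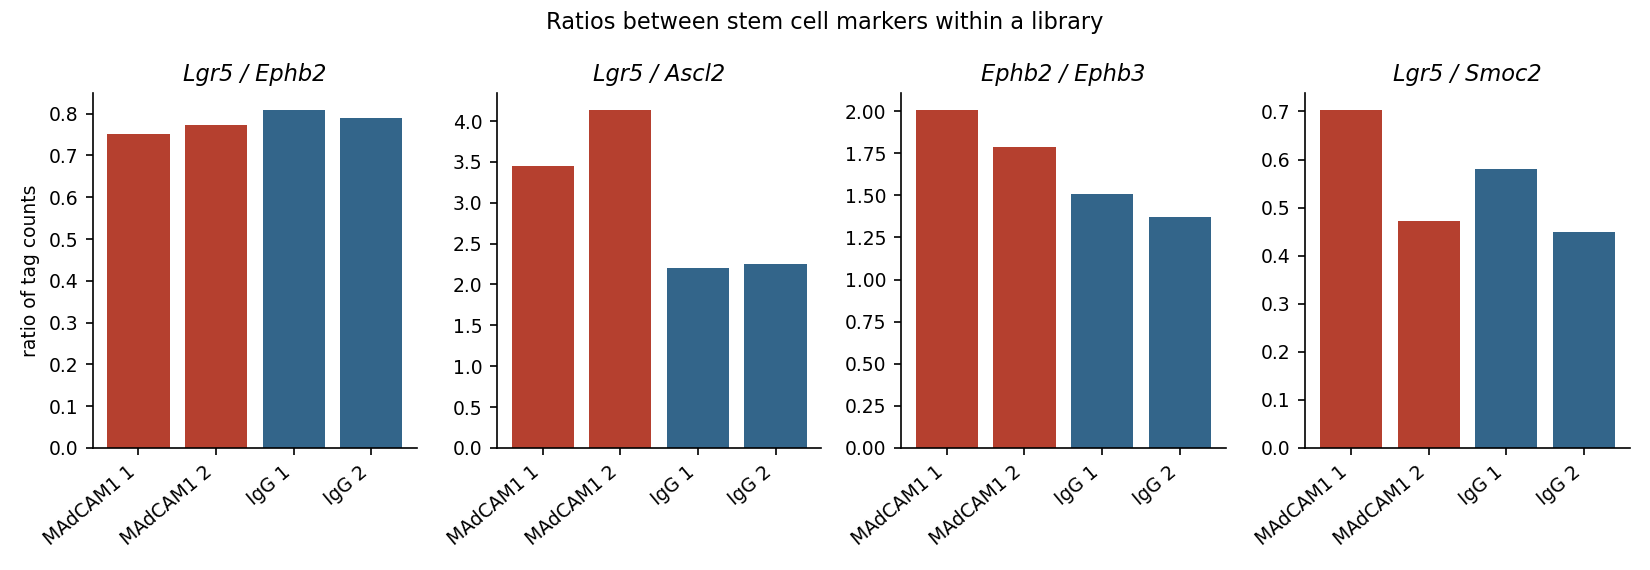
Ratio of tag counts between pairs of markers (y axes, from 0) in each library, MAdCAM1 in red and IgG in blue. Lgr5 per Ephb2 is slightly lower in both MAdCAM1 libraries, a difference within counting error. Lgr5 per Ascl2 and Ephb2 per Ephb3 are higher in both MAdCAM1 libraries, and Lgr5 per Smoc2 overlaps.

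The partners of these proteins were examined from lists that complete their pathways. Lgr4, the broadly expressed relative of Lgr5, stood at 227 and 243 CPM in MAdCAM1 and 239 and 180 CPM in IgG, and Lgr6 at 45.9 and 10.4 CPM in MAdCAM1 and 23.96 and 18.2 CPM in IgG. Both overlapped between the groups. Of the ligases opposed by R-spondin, Znrf3 was lower in both MAdCAM1 libraries, at 95.4 and 60.0 CPM against 113 and 174 CPM in IgG (log2 fold change −0.89, SE 0.34; edgeR adjusted p = 0.731). Rnf43 overlapped at 122 and 83.0 CPM in MAdCAM1 and 115 and 147 CPM in IgG. Rspo1, Rspo2 and Rspo3 were not analysed here. In the list of niche supply genes, 8 of 18 were tested and 0 were called. Of these, 1 was higher in both MAdCAM1 libraries and 0 were lower in both, against 19.7% and 18.7% of all genes tested. That 1 was Reg4, of deep crypt secretory cells, at 462 and 412 CPM in MAdCAM1 and 398 and 199 CPM in IgG. The BMP antagonist Grem1, from crypt-base stroma, overlapped at 11.6 and 69.6 CPM in MAdCAM1 and 26.4 and 22.6 CPM in IgG.

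Ephrin ligands of the Eph receptors showed no common direction. Efnb1 stood at 38.4 and 47.5 CPM in MAdCAM1 and 49.9 and 27.3 CPM in IgG, and Efnb2 at 44.0 and 43.1 CPM in MAdCAM1 and 33.4 and 60.4 CPM in IgG, both overlapping. Efnb3 was not analysed here. Of 6 ephrins tested, 1 was higher in both MAdCAM1 libraries (Efna1, log2 fold change 0.46) and 1 was lower in both (Efna2, −0.38, on 25 tags or fewer). Of 6 other Eph receptors, 1 was lower in both, Ephb6 at 58.2 and 48.3 CPM in MAdCAM1 and 63.3 and 127 CPM in IgG, and the median log2 fold change was −0.49. For the CD44 list, 2 of 13 genes were lower in both, the sheddase gene Adam10 (428 and 374 CPM in MAdCAM1, 510 and 512 CPM in IgG) and the hyaluronidase gene Hyal1. Has3, a hyaluronan synthase, stood at 0.770 and 2.14 CPM in MAdCAM1 and 15.0 and 1.42 CPM in IgG, high in IgG 1 alone. No gene of these 3 lists was called by edgeR's quasi-likelihood test, its exact test or DESeq2, which called 0%, 1.12% and 1.67% of all genes tested. Over all genes tested, 19.7% were higher and 18.7% lower in both MAdCAM1 libraries.

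Other genes of the crypt-base signature split evenly. Of 31 tested, 6 were higher in both MAdCAM1 libraries and 6 lower in both, near the 19.7% and 18.7% of all genes tested. The median log2 fold change of these 31 genes was −0.0013, and the quasi-likelihood test called 0 of them. Those with the smallest p were Clca4b, Cttnbp2, Noxa1 and Esrrg. Clca4b stood at 679 and 1033 CPM in MAdCAM1 and 392 and 293 CPM in IgG, a log2 fold change of 1.32 (SE 0.29), called by DESeq2 (adjusted p = 0.00532) and by edgeR's exact test (adjusted p = 0.0493) but not by its quasi-likelihood test (adjusted p = 0.665). Cttnbp2, a cortactin-binding protein gene, was lower in both at 4.48 and 6.15 CPM in MAdCAM1 and 10.6 and 13.4 CPM in IgG. Noxa1, an activator of NADPH oxidase, was higher in both at 27.9 and 23.1 CPM in MAdCAM1 and 16.5 and 12.4 CPM in IgG. Esrrg, an orphan nuclear receptor gene, had 28 and 27 tags in MAdCAM1 and 5 and 0 tags in IgG. It passed the expression filter only through the MAdCAM1 libraries, so its test result is given as a description and not as support. edgeR's exact test called Esrrg (adjusted p = 0.0145) and DESeq2 did not (adjusted p = 0.402). In simulated data with 2 libraries per group, every test made more false calls than the adjusted threshold allows, the quasi-likelihood test included. The exact test and DESeq2 made more of them than the quasi-likelihood test.

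Markers of reserve or quiescent stem cells were mostly overlapping, with 1 of 13 higher in both MAdCAM1 libraries and 1 lower in both, a median of −0.039 on the log2 scale and 0 calls. The higher gene was the general epithelial keratin Krt19 (log2 fold change 0.71), and the lower gene was the progenitor factor Sox4, at 234 and 156 CPM in MAdCAM1 and 265 and 349.9 CPM in IgG. Krt15 stood at 6.93 and 17.9 CPM in MAdCAM1 and 71.0 and 11.8 CPM in IgG, high in IgG 1 alone. Dclk1, also a tuft cell gene, overlapped at 2.59 and 5.63 CPM in MAdCAM1 and 2.85 and 1.55 CPM in IgG. In the proliferation list 3 of 12 genes were higher in both and 2 lower in both, with a median of 0.069 and 0 calls. Over all genes tested, 19.7% were higher and 18.7% lower in both MAdCAM1 libraries. Ccna2, a cyclin of S and G2 phase, stood at 78.1 and 75.6 CPM in MAdCAM1 and 56.9 and 53.5 CPM in IgG, and Birc5, which encodes survivin, at 122 and 96.9 CPM in MAdCAM1 and 91.5 and 80.2 CPM in IgG. The Wnt targets Myc and Ccnd1 were lower in both, Myc at 68.5 and 44.9 CPM in MAdCAM1 and 77.2 and 103 CPM in IgG, and Ccnd1 at 98.2 and 84.5 CPM in MAdCAM1 and 110 and 116 CPM in IgG. Mki67 overlapped at 81.5 and 77.5 CPM in MAdCAM1 and 97.8 and 54.1 CPM in IgG.

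Genes of differentiated epithelial cells and general epithelial genes stood apart from the stem cell markers in their medians. The median log2 fold change was 1.64 for 10 colonocyte genes, 2.32 for 8 goblet cell genes and 0.71 for 8 general epithelial genes, against −0.076 for the 10 stem cell markers. In tags per library, Lgr5 had 1038 and 727 in MAdCAM1 and 997 and 774 in IgG, while Muc2, the secreted mucin of goblet cells, had 26787 and 17541 in MAdCAM1 and 6403 and 2019 in IgG. Krt20, a keratin of mature surface cells, had 4192 and 5645 tags in MAdCAM1 and 2364 and 1564 tags in IgG. The quasi-likelihood test called 0 genes of these lists over all genes. The exact test called 5 colonocyte, 4 goblet cell and 0 general epithelial genes, against 1.12% of all genes tested. DESeq2 called 5, 5 and 2, against 1.67% of all genes tested. The colonocyte calls of both tests include Aqp8 and Slc26a3. Aqp8 had 162 and 52 tags in MAdCAM1 and 8 and 1 tags in IgG, and Slc26a3 had 326 and 169 in MAdCAM1 and 35 and 8 in IgG. Neither would have passed the expression filter on the IgG libraries alone, so their calls are given as a description and not as support. DESeq2's adjusted p was 0.000301 for Muc2 and 4.2e-05 for Krt20, and that of the exact test 0.0114 for Muc2 and 0.00349 for Krt20. Both tests made more false calls in the simulated data than the adjusted threshold allows. These lists were chosen with earlier results of these data known.

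**Figure D5:**
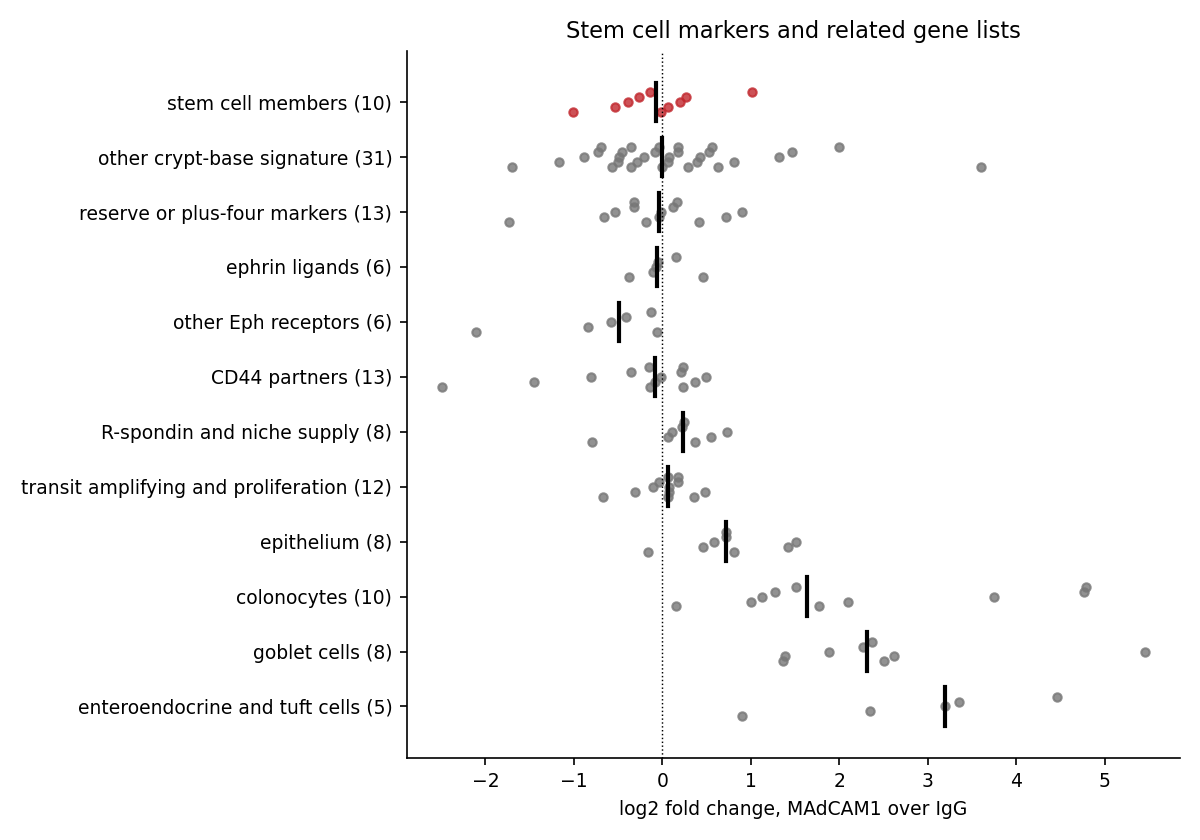
Log2 fold change, MAdCAM1 over IgG (x axis), of each tested gene in the stem cell marker list (red) and in related lists (grey), with the number tested in brackets and the list median as a black bar. The medians of the stem cell and proliferation lists lie between −0.076 and 0.069, and those of colonocyte, goblet and enteroendocrine and tuft cell genes between 1.64 and 3.19.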

How the data were processed

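CAGE tags were counted in 4 colon tumour libraries, 2 per group. Per the labels' protocols, total RNA of integrity number above 7.0 was read as single ends of 75 nt. Tags were mapped to GRCm39 with BWA 0.7.17, what BWA left unmapped with HISAT2 2.0.5, and RECLU grouped them into clusters. Clusters under 0.1 CPM, over 200 bp or at an irreproducible discovery rate from 0.1 upwards were discarded, and regions with 90% overlap between replicates kept. The step from clusters to gene totals is not given in the sources used here. The authors deposited a table of raw tag counts by gene, and every value was checked to be whole.

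Genes were filtered with filterByExpr (14331 of 14979 kept), TMM-scaled and tested, MAdCAM1 over IgG, with edgeR 4.0.16 in R 4.3.3 using the quasi-likelihood F test with robust estimation and an adjusted p threshold of 0.05. Intervals are 95% and use its moderated degrees of freedom. The common biological coefficient of variation was 0.322. DESeq2 1.42.0, limma-voom 3.58.1, edgeR's exact test, other scalings and filters, left-out libraries and a replicate block were alternatives, and all 4 tests were tested on simulated data with planted fold changes. There every test made false calls beyond the share its threshold allows, limma-voom the fewest, then the quasi-likelihood test, the exact test and DESeq2. The deviations of same-numbered libraries from their group means correlated at −0.16 across genes, and the numbers belong to different mice. With only 2 mice a group, p-values set the group difference against the spread between these mice, which the quasi-likelihood fit moderates across genes.

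Coordinates come from GENCODE M39 (GRCm39), which held 14289 of the 14331 genes. The members and lists were chosen with earlier results of these data known. Named genes were all 10 members, fixed partners and references, and up to 4 tested genes of each other list with the smallest p. From the lists of differentiated cells, smooth muscle, endothelium, leukocytes and neurons only counts, sums or reference genes are given, besides Aqp8 and Slc26a3. No member shares its values with another gene.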

Additional observations from a re-analysis of the deposited data

How the results depend on the processing

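No alternative called any of the 10 markers. Over all genes the quasi-likelihood test called 0, and 991 had an unadjusted p under 0.05. DESeq2 called 239 and edgeR's exact test 161, while the other scalings and filters, limma-voom, the fit without robust estimation, counting identical genes once and each left-out library called 0. The median log2 fold change of the markers ran from −0.30 to 0.055 when 1 library was left out. Scaled to the epithelial sum, a setting added after seeing the data, it was −0.70, with Lgr5 at −0.43, Ephb2 at −0.36 and Prom1 at −0.57. That scaling moved the median of all genes to −0.61. With library size alone Prom1 was at −0.031. Ascl2, Msi1 and Lrig1 kept their sign in all alternatives. When 1 library was left out, the log2 fold change ran from −1.05 to −0.16 for Ascl2, −1.41 to −0.47 for Msi1, 0.46 to 1.88 for Lrig1, −0.15 to 0.47 for Lgr5, −0.10 to 0.56 for Ephb2, −0.18 to 0.27 for Prom1, −0.086 to 0.047 for Smoc2, −0.97 to 0.023 for Sox9, −0.42 to 0.088 for Ephb3 and −0.54 to 0.049 for Cd44. The cause of the turns of sign was not tested. With the replicate block, the quasi-likelihood test called 0 genes and 0 markers, and the markers' median was −0.086. With the crossed pairing, added after seeing the data, it also called 0 genes. With a group left at 1 library, that library is assumed to vary like the others.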

Other observations

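Lrig3, a relative of Lrig1 that is not among the 10 markers and was looked up after the values of Lrig1 were seen, stood at 22.2 and 25.3 CPM in the MAdCAM1 libraries and at 15.5 and 5.44 CPM in the IgG libraries. As for Lrig1, both MAdCAM1 values were higher and IgG 2 was the lowest library (log2 fold change 1.18, SE 0.55; edgeR adjusted p = 0.760). Gm34567, a non-coding gene that overlaps Smoc2 on the same strand, had 16 and 14 tags in the MAdCAM1 libraries and 22 and 19 tags in the IgG libraries.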
